A study of Mus musculus with 12 samples.

Results

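The Janus kinases and the STAT factors were followed through a time course of mouse dendritic cells exposed to nanoparticles. The 9 genes were Jak1, Jak2, Jak3, Tyk2, Stat2, Stat3, Stat4, Stat5a and Stat6. They were taken by symbol, through the RefSeq accession of each array probe, and 12 probes matched. All 9 were among the 18400 genes that passed the filter on dim probes, and 11577 of those genes carried a symbol. Of these, 8 were well above background on all 12 arrays and Jak2 on the 11 arrays where its spot was used, and none was saturated, so none of the 9 passed through 1 group alone.

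Janus kinases are tyrosine kinases that sit on the inner side of cytokine receptors. When a cytokine brings the receptor chains together, the kinases phosphorylate the receptor and then the STAT proteins that dock there, and paired STATs enter the nucleus and bind DNA. In dendritic cells this route carries the signals of GM-CSF, interferons, interleukin-6, interleukin-10, interleukin-12 and interleukin-4, and the SOCS proteins shut it off. The activity of these proteins is set by phosphorylation, which an array of transcripts does not measure.

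The cells came from the marrow of female mice aged 6 to 8 weeks. The marrow was grown in GM-CSF at 20 ng/ml, and the loosely attached or floating cells were collected on day 7 as immature dendritic cells. They received γ-PGA NPs, which are particles of the polymer poly(γ-glutamic acid), at 300 µg/ml. RNA was labelled as 0, 6, 12 or 24 h of exposure, with 3 samples at each time, described by the design as independent experiments. All groups share the GM-CSF culture, and neither strain nor allele is given in the sources used here. No untreated culture at 6, 12 or 24 h was analysed here, so exposure and time in culture cannot be told apart. In such bulk samples, fewer cells of a type and less RNA per cell cannot be told apart either.

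The samples are described by a pair of sources that did not always match. The scanner files gave the processed signal of each spot, used here as log2 relative to the 75th percentile of its array. The authors' deposited value table gave each probe as a linear ratio, with the median of the 0 h columns set to 1. The arrays labelled 24 h stood apart from their label in the scanner files: their mean correlation with the 0 h arrays over all genes was 0.991, against 0.91 with the 12 h arrays, while arrays at 0 h correlated at 0.995 among themselves. Over 18400 genes, the changes from 0 h in the scanner files and in the table correlated at 0.73 at 6 h, 0.54 at 12 h and -0.07 at 24 h. In the table the 24 h columns were most like those at 12 h (0.896). Both sources are therefore given for each JAK and STAT gene, and scanner values at 24 h are those of the arrays so labelled. The fit had a separate mean for each group. Leaving out these 3 arrays therefore could not alter the changes from 0 h at 6 and 12 h. Each array had 50.9% to 59.6% of its spots well above background. All 7 dendritic cell markers looked at were well above background on every array at 0 h, and 5 of them at 6 and at 12 h. Cd209a was so on no array at 6 or 12 h, and Flt3 on 2 arrays at 6 h and 1 at 12 h. Zbtb46 went the other way, from a scanner log2 of -1.36 at 0 h to -0.21 at 6 h and -0.13 at 12 h.

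The stretches before the start sites of Stat2, Stat4 and Stat5a are shown because these genes had the largest rises or opposite directions in the sources. They are the 250 bases before a RefSeq start site, on the plus strand of GRCm38.p6. RefSeq windows were found for all 9 genes, 11 in all since Stat4 and Stat5a have 2 starts each, and which start the array probes report is not known. Stat2 lies at chr10:128270248-128270497, the second start of Stat4 at chr1:52007990-52008239 and the second start of Stat5a at chr11:100860234-100860483. Capitals mark matches, on either strand, to an interferon-response core (GAAA, any 2 bases, GAAA) or to a widely spaced STAT site (TTC, any 4 bases, GAA).
Stat2: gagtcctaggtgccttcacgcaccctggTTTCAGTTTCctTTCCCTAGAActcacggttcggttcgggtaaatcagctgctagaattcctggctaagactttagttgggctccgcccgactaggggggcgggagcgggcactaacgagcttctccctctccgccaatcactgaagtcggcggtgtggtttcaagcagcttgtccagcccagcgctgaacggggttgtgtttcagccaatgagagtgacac
Stat4: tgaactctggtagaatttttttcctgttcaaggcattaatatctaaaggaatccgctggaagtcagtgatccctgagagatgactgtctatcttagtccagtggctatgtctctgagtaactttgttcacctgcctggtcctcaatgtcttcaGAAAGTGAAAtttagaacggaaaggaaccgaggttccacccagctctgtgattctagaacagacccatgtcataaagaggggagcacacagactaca
Stat5a: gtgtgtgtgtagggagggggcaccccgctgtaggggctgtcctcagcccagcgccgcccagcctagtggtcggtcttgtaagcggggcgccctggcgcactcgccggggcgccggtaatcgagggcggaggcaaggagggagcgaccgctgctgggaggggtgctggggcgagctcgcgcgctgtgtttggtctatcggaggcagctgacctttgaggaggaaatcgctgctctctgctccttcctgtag
In the Stat2 stretch the interferon-response core TTTCAGTTTC began at position -222 from the start site and the wide STAT site TTCCCTAGAA at -210. In the second Stat4 window the core GAAAGTGAAA began at -97, while the first Stat4 window, not shown, held none of the sites searched for. Of the 11 windows of the members, 2 held the core and 1 the wide site. Among 32851 windows of all genes, each with 250 bases before and 50 after the start, 3.44% held the core and 6.95% the wide site. None of the 11 windows held the usual STAT site TTCNNNGAA, which 8.3% of all windows held, or the NF-kB site (GGGA, any base, TTTCC), which 0.411% held. The letters describe these windows and say nothing about binding.

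Jak2, Stat3 and Stat5a transcripts rose by 6 h, and Stat2 and Stat4 joined them by 12 h, in the scanner values. The deposited table shared the rise of Stat5a at 6 and 12 h and of Stat4 at 12 h, and had Stat4 at its highest at 24 h. A gene is said to rise or fall here only where its adjusted p was under 0.05 over all genes and its change at least 2-fold. In the scanner values 3 of the 9 rose at 6 h, where 26.1% of all genes were called and 10.2% were called higher. At 12 h 5 of 9 rose, against 30.6% called and 13.7% called higher. None was called on the arrays labelled 24 h, where 0.837% of all genes were, and by limma 1 of the 9 had an unadjusted p under 0.05 there and none an adjusted one. That background of 154 genes rests on few arrays: it was 48, 46 and 38 without 0 h replicates 1, 2 and 3 in turn, 36, 24 and 29 without 24 h replicates 1, 2 and 3, and 291 without 12 h replicate 3. In the table, 1 of 9 rose at 6 h, 2 at 12 h and 1 at 24 h. Of all genes, 25.0%, 27.8% and 26.3% were called there, and 13.2%, 15.7% and 13.3% called higher. The table counts are thus near the shares called higher. Over the whole time course, by limma's moderated F-test, 5 of 9 changed in the scanner values (36.1% of all genes) and 2 of 9 in the table (36.9%). The median log2 change of the 9 was 0.59 at 6 h and 1.85 at 12 h in the scanner values, beside -0.059 and -0.03 over all genes, and 0.72, 0.51 and 0.28 at 6, 12 and 24 h in the table, beside 0.14, 0.22 and 0.12. With the adjusted p alone and no minimum fold, 6, 9 and 0 of the 9 passed at 6, 12 and 24 h in the scanner values, where 71.8%, 75.6% and 3.57% of all genes did, and 8, 7 and 8 in the table, where 71.2%, 73.9% and 72.5% did.

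**Figure D1:**
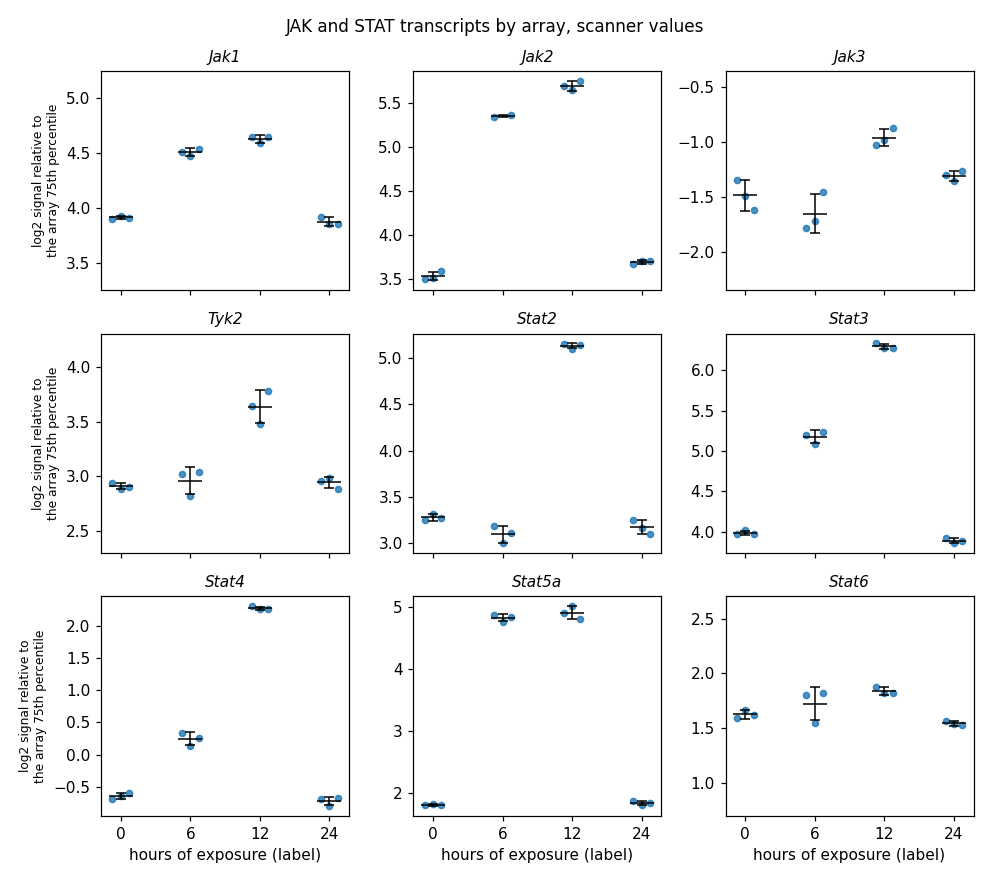
Scanner values of the 9 genes by array: the y axis is the log2 processed signal relative to the 75th percentile of the array, the x axis the labelled hours, points are arrays, and black lines are the mean and SD (n = 3, and 2 for Jak2 at 6 h). The panels have their own y ranges, and Stat5a lies between 4.77 and 5.02 on the 6 and 12 h arrays against 1.80 to 1.83 at 0 h.

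Jak2, the kinase paired with the receptors of GM-CSF, interleukin-12 and interferon-γ, was the only kinase of the 4 that rose in the scanner values. Its scanner log2 values were 3.50, 3.51 and 3.59 at 0 h, 5.34 and 5.36 at 6 h, 5.69, 5.64 and 5.75 at 12 h, and 3.67, 3.71 and 3.70 at 24 h. The 6 h group has 2 values because the third spot was marked as an outlier by the software and was left out. The 6 and 12 h arrays all lay above the 0 and 24 h arrays with no overlap. The rise was 3.51-fold at 6 h (log2 1.81, SE 0.047, adjusted p = 1.33e-09) and 4.46-fold at 12 h (log2 2.16, SE 0.042, adjusted p = 1.57e-10). The table gave ratios of 1.00, 0.965 and 1.06 at 0 h, 1.33, 1.22 and 1.24 at 6 h, 1.30, 1.39 and 1.16 at 12 h, and 0.719, 0.792 and 0.810 at 24 h. These ratios are on the same side as the scanner values at 6 and 12 h but far smaller, with log2 changes of 0.33 (adjusted p = 0.00361), 0.35 (adjusted p = 0.0023) and, at 24 h, -0.38 (adjusted p = 0.00129), all short of 2-fold. A second Jak2 probe gave scanner changes of 1.34 and 1.69 at 6 and 12 h. Its table changes were 0.17, -0.062 and -0.74 at 6, 12 and 24 h, so at 12 h the probes of the table differ in sign.

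Jak1, which serves the interferon receptors and the receptors built on gp130 or the common γ chain, was higher at 6 and 12 h in both sources without reaching 2-fold. The scanner log2 values ran from 3.90 to 3.93 at 0 h, 4.47 to 4.54 at 6 h, 4.59 to 4.65 at 12 h and 3.85 to 3.92 at 24 h. The 6 and 12 h arrays did not overlap the 0 h arrays, and the changes were 1.51-fold (adjusted p = 2.28e-07) and 1.64-fold (adjusted p = 4.4e-08). The table gave 1.65-fold at 6 h, 1.42-fold at 12 h and 1.23-fold at 24 h, with adjusted p of 3.85e-06, 5.37e-05 and 0.00227. Jak1 had the closest values in the sources of the 4 kinases at 6 h, at log2 0.59 and 0.72.

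Tyk2, which works beside Jak1 on the type I interferon receptor and beside Jak2 on the interleukin-12 receptor, differed between sources. Its scanner values were 2.89 to 2.94 at 0 h, 2.82 to 3.04 at 6 h, 3.48 to 3.78 at 12 h and 2.89 to 2.99 at 24 h. Only the 12 h arrays lay clear of the others, 1.65-fold above 0 h (log2 0.72, SE 0.081, adjusted p = 1.56e-05). The table ratios were 1.18 to 1.24 at 6 h, 0.885 to 1.06 at 12 h and 0.572 to 0.646 at 24 h. At 24 h the table was 1.67-fold below 0 h (log2 -0.74, SE 0.086, adjusted p = 2.41e-05), also short of 2-fold.

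Jak3, the partner of the common γ chain of the receptors for interleukin-2, interleukin-4, interleukin-7 and interleukin-15, moved least among the kinases in the scanner values. These were -1.34, -1.49 and -1.62 at 0 h, -1.78, -1.72 and -1.45 at 6 h, -1.02, -0.98 and -0.87 at 12 h, and -1.30, -1.35 and -1.26 at 24 h. The 6 h arrays overlapped those at 0 h, and the 12 h arrays lay 1.44-fold above them (adjusted p = 0.000537). The table had Jak3 1.52-fold below 0 h at 6 h (log2 -0.61, adjusted p = 0.000119) with ratios of 0.672, 0.661 and 0.596, and log2 changes of -0.17 at 12 h (adjusted p = 0.108) and 0.024 at 24 h (adjusted p = 0.818). The second Jak3 probe gave scanner changes of -0.48 at 6 h and -0.0066 at 12 h, so the 12 h difference of 0.52 rests on 1 of its 2 probes. From 6 to 12 h Jak3 was higher in both sources, by log2 0.70 in the scanner values (adjusted p = 0.00018) and 0.44 in the table (adjusted p = 0.00226).

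Stat5a, the factor that carries the signals of GM-CSF and interleukin-3, had the largest rise of the 9 at 6 h in both sources. Its scanner log2 values were 1.80, 1.83 and 1.80 at 0 h, 4.88, 4.77 and 4.85 at 6 h, 4.91, 5.02 and 4.82 at 12 h, and 1.87, 1.81 and 1.84 at 24 h. The 6 and 12 h arrays formed a plateau, overlapping each other and clear of 0 h. The rise was 8.12-fold at 6 h (log2 3.02, SE 0.053, adjusted p = 2.56e-11) and 8.59-fold at 12 h (log2 3.1, SE 0.053, adjusted p = 1.38e-11). From 6 to 12 h the change was 0.082 (adjusted p = 0.238). The table ratios were 1.00, 0.882 and 1.01 at 0 h, 5.93, 6.22 and 5.47 at 6 h, 4.13, 4.29 and 4.08 at 12 h, and 1.36, 1.37 and 1.41 at 24 h. In the table Stat5a was therefore highest at 6 h and came down at each later time, with no overlap between any neighbouring pair of times. The rise was 6.09-fold at 6 h (log2 2.61, SE 0.065, adjusted p = 2.44e-10) and 4.33-fold at 12 h (log2 2.12, SE 0.065, adjusted p = 8.64e-10), and the level fell 3.02-fold from 12 to 24 h (adjusted p = 1.09e-07). At 24 h it was still 1.43-fold above 0 h (adjusted p = 4.29e-05), short of 2-fold.

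Stat4, the factor of interleukin-12, interleukin-23 and type I interferon receptors, rose later than Stat5a. Its scanner values were -0.70, -0.65 and -0.60 at 0 h, 0.34, 0.14 and 0.26 at 6 h, 2.31, 2.26 and 2.26 at 12 h, and -0.70, -0.80 and -0.68 at 24 h. The 0, 6 and 12 h groups stood in 3 separate bands. The 6 h change was 1.86-fold (log2 0.90, SE 0.056, adjusted p = 2.01e-07), short of 2-fold, and the 12 h rise 7.60-fold (log2 2.93, SE 0.056, adjusted p = 2.9e-11). The table ratios were 1.00, 0.957 and 1.20 at 0 h, 1.79, 1.72 and 1.75 at 6 h, 4.26, 4.17 and 3.59 at 12 h, and 6.99, 7.87 and 8.53 at 24 h. All 4 groups were separate in the table, in the order of the hours. The table rise was 3.81-fold at 12 h (log2 1.93, SE 0.10, adjusted p = 5.6e-08) and 7.41-fold at 24 h (log2 2.89, SE 0.10, adjusted p = 2.63e-09). Stat4 is the gene of the 9 whose 24 h values differed most between the sources, at log2 2.89 in the table and -0.077 on the arrays.

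Stat4 is best known from T cells and natural killer cells, so their markers are given beside it. Of 5 natural killer markers, Ncr1, Gzma and Eomes were well above background on no array at any time. The summed log2 level of the 5 was 1.67 to 1.75 at 0 h and -0.93 to -0.77 at 12 h. Of 5 T cell markers, Cd3g and Cd2 were above background on no array at 6 or 12 h, and the summed level was 0.12 to 0.19 at 0 h and -0.45 to -0.19 at 12 h. Klrd1, at 1.67 at 0 h and -1.07 at 12 h, made up most of the natural killer sum. Lck and Cd3e went the other way, from -4.23 to -1.42 and from -2.37 to -1.91. In the table the log2 ratios at 12 and 24 h were 1.79 and 1.25 for Lck, 0.69 and 0.53 for Cd3e, 0.25 and 0.59 for Klrd1, and -1.63 and -1.93 for Cd3d. The part of these cells in the Stat4 values was not tested.

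Stat3, the factor of the interleukin-6 and interleukin-10 families, rose in steps in the scanner values. They were 3.97, 4.02 and 3.97 at 0 h, 5.20, 5.09 and 5.24 at 6 h, 6.33, 6.27 and 6.28 at 12 h, and 3.92, 3.86 and 3.89 at 24 h. The 0, 6 and 12 h arrays did not overlap. The rise was 2.28-fold at 6 h (log2 1.19, SE 0.045, adjusted p = 3.92e-09) and 4.95-fold at 12 h (log2 2.31, SE 0.045, adjusted p = 2.98e-11). The 6 h rise depended on the scaling of the arrays, since quantile normalization gave log2 0.89, under 2-fold. The table ratios were 1.00, 0.998 and 1.08 at 0 h, 1.97, 1.85 and 1.69 at 6 h, 1.73, 1.76 and 1.71 at 12 h, and 1.27, 1.36 and 1.34 at 24 h. All later columns lay above 0 h, at 1.79-fold, 1.69-fold and 1.29-fold, with adjusted p of 8.21e-07, 1.69e-06 and 0.000419 and no change reaching 2-fold. The 6 and 12 h columns overlapped, where the scanner arrays had a further 2.17-fold rise (adjusted p = 2.87e-08).

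Stat2, which joins Irf9 in the interferon-induced complex ISGF3, went opposite ways in the sources at 12 h. Its scanner values were 3.25, 3.32 and 3.27 at 0 h, 3.18, 3.00 and 3.11 at 6 h, 5.15, 5.10 and 5.14 at 12 h, and 3.25, 3.16 and 3.1 at 24 h. Only the 12 h arrays stood high, after a 6 h group just below 0 h (log2 -0.18, adjusted p = 0.0145). The rise was 3.62-fold at 12 h against 0 h (log2 1.85, SE 0.055, adjusted p = 5.25e-10) and 4.09-fold against 6 h (log2 2.03, SE 0.055, adjusted p = 2.2e-09). The table ratios were 0.976, 1.00 and 1.05 at 0 h, 1.07, 0.993 and 0.987 at 6 h, 0.701, 0.720 and 0.722 at 12 h, and 0.557, 0.566 and 0.532 at 24 h. Both later table groups lay below 0 h without overlap, 1.41-fold at 12 h (log2 -0.50, SE 0.051, adjusted p = 8.29e-06) and 1.83-fold at 24 h (log2 -0.87, SE 0.051, adjusted p = 1.14e-07), short of 2-fold. The 12 h table change stayed below 0 with the columns centred on their medians (-0.77) and with quantile normalization (-0.45), and the scanner change above 0 with quantile normalization (1.40).

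Stat6, the factor of interleukin-4 and interleukin-13, moved least in the scanner values. They ran from 1.59 to 1.67 at 0 h, 1.55 to 1.82 at 6 h, 1.82 to 1.88 at 12 h and 1.53 to 1.57 at 24 h. The 6 h arrays spanned the whole 0 h range, and the 12 h change was 1.16-fold (adjusted p = 0.014). The table had Stat6 1.91-fold higher at 6 h (log2 0.93, SE 0.083, adjusted p = 3.08e-06) with ratios of 2.11, 1.84 and 1.90, then 1.54-fold at 12 h and 1.21-fold at 24 h. The second probe of Stat6 kept both pictures, with 0.087 in the scanner values and 0.82 in the table at 6 h.

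**Figure D2:**
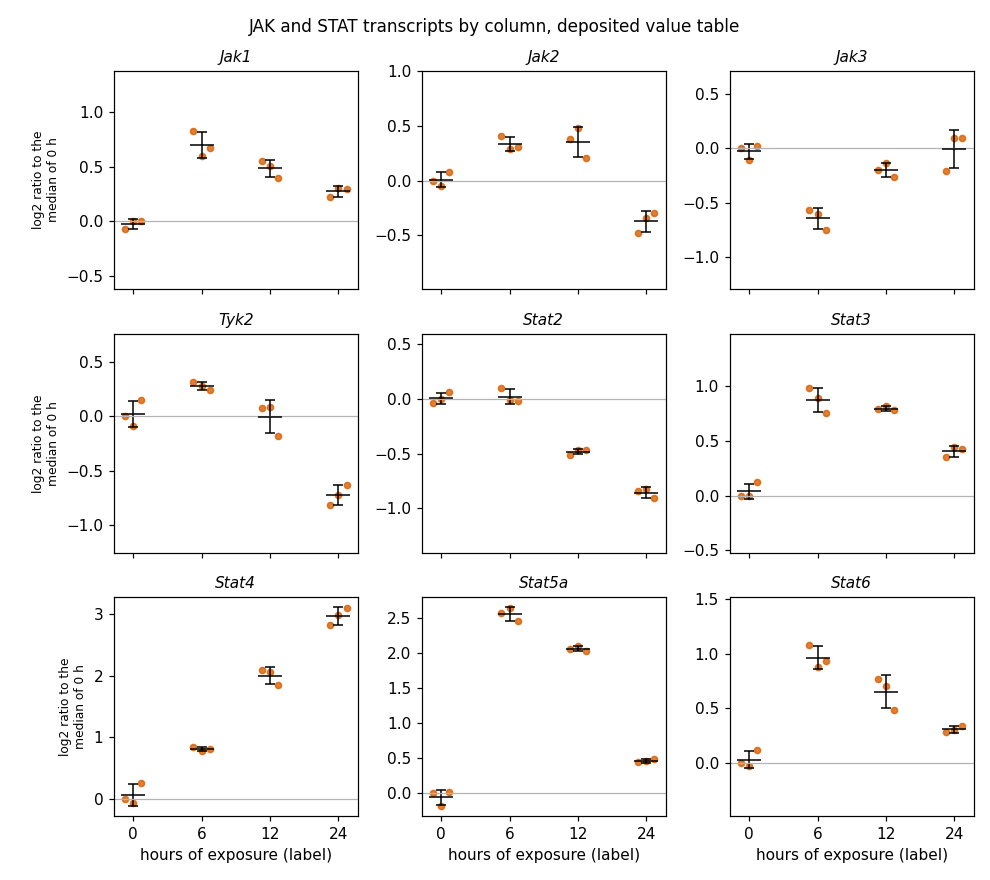
Deposited table values of the 9 genes by column: the y axis is the log2 ratio to the median of 0 h, the x axis the labelled hours, points are columns, and black lines are the mean and SD (n = 3). Stat4 climbs through all 4 times, Stat5a is highest at 6 h, and Stat2 and Tyk2 are lowest at 24 h.

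The order of events between times was tested directly. From 6 to 12 h the scanner values of Stat2, Stat3 and Stat4 rose, 3 of 9 genes where 6.99% of all genes were called and 4.89% called higher. For Stat3 that step was 0.88 with quantile normalization, under 2-fold. In the table only Stat4 was called, by 2.28-fold (adjusted p = 1.1e-05), against 5.80% of all genes called and 3.07% called higher, and quantile normalization of the table took that change to log2 0.91. From 12 h to the arrays labelled 24 h, Jak2, Stat2, Stat3, Stat4 and Stat5a all fell in the scanner values, with log2 changes of -2.00, -1.96, -2.40, -3.00 and -3.07, where 31.0% of all genes were called and 12.9% called lower. In the table Stat5a alone fell (log2 -1.59), against 4.57% of all genes called and 3.17% called lower. With no minimum fold, 7 of the 9 passed in each source from 6 to 12 h (47.4% of all genes in the scanner values and 48.0% in the table), and 9 and 8 from 12 to 24 h (75.2% and 43.7%). Stat4 went up in the table over the same interval by 1.94-fold (adjusted p = 6.03e-05), just short of 2-fold. It reached log2 1.00 without the first 12 h column and 1.04 without the first 24 h column.

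The arrays lay on 3 slides, which touched the time points unevenly: the first held the 0 h arrays and 1 array of 6 h, the second the rest of 6 h and 2 arrays of 12 h, and the third the last 12 h array and those of 24 h. Within the first slide the 6 h change was log2 1.80 for Jak2, 1.21 for Stat3 and 3.07 for Stat5a. Within the second slide the 6 to 12 h change was 2.07 for Stat2, 1.14 for Stat3 and 2.08 for Stat4. With the slide as a block the 12 h changes from 0 h were 2.11 for Jak2, 1.97 for Stat2, 2.34 for Stat3, 3.07 for Stat4 and 3.22 for Stat5a. The scanner rises within slides were thus close to or above those across them, with a single 6 h array in the first slide.

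**Figure D3:**
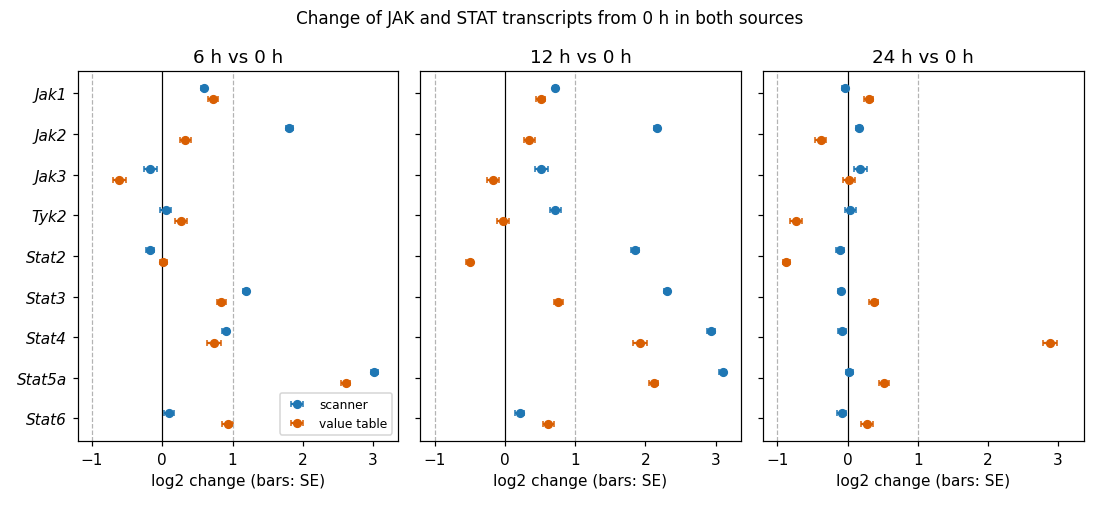
Log2 change from 0 h of each gene (x axis) at 6, 12 and 24 h in the scanner values (blue) and the deposited table (orange), with SE as bars and dashed lines at 2-fold. Stat5a lies past the line in both sources at 6 and 12 h, Stat2 at 12 h is at 1.85 in one and -0.50 in the other, and at 24 h only Stat4 of the table is past it.

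Against this background the rest of the pathway was counted from lists of ligands, receptors, inhibitors and target genes. Of 34 ligand genes 32 were on the array and 23 could be measured. In the scanner values 17 rose and none fell at 6 h, where 10.2% of all genes were called higher. The median log2 change was 2.80, or 2.44 with genes below background or saturated at their bounds, beside -0.059 over all genes. Of the called ligands, 8 at 6 h and 10 at 12 h had a group below background or saturated. A gene could pass the filter through 1 bright group alone, so these counts partly rest on the filter. At 12 h 18 rose, where 13.7% of all genes were called higher, and 1, Thpo, which encodes thrombopoietin, fell (log2 -1.04). The table change of Thpo at 12 h was 0.39, short of 2-fold. The table had 11 rise and 1 fall at 6 h, with a median of 1.13, then 9 and 2 at 12 h and 7 and 2 at 24 h. Of all genes the table had 13.2% higher and 11.8% lower at 6 h, 15.7% and 12.1% at 12 h, and 13.3% and 13.0% at 24 h. Il6, whose product signals to Stat3, rose at least 653-fold at 6 h and at least 727-fold at 12 h in the scanner values, where its probe was saturated, and its table log2 changes were 6.71, 6.25 and 4.47. Csf2, which encodes GM-CSF itself, rose at least 165-fold at 6 h from a 0 h level not well above background, and its table change there was 2.26. Il10, another Stat3 cytokine, rose at least 134-fold at 12 h, with a table change of 2.82. "At least" sets the brighter group, a saturated spot at its value, against the dimmer one, raised to the lowest measurable signal where it is below background.

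Receptors moved both ways, though their falls were near or under the share of all genes in both sources. Of 34 measured, 9 rose and 6 fell at 6 h in the scanner values and 12 rose and 5 fell at 12 h. At these times 10.2% and 13.7% of all genes were called higher and 15.9% and 16.9% lower. The receptor medians were 0.39 and 0.38. One of those called at 6 h, Il23r, was well above background in neither group, and normexp background correction left 9 calls. In the table, 11 rose and 3 fell at 6 h, 14 and 4 at 12 h, and 12 and 4 at 24 h, with all genes at 13.2% higher and 11.8% lower at 6 h, 15.7% and 12.1% at 12 h, and 13.3% and 13.0% at 24 h. The 12 h split depends on the column scaling, since 2887 of 5114 called genes were higher as deposited and 2005 of 4975 with columns centred. Quantile normalization left 9 receptor calls at 6 h and 10 at 12 h in the table. Il2ra, a chain of the interleukin-2 receptor, rose by log2 3.46 and 4.06 in the scanner values, with table values of 0.94 and 0.91. Il20rb, a chain of the receptors for the interleukin-20 family, rose by 2.40 at 6 h and by 2.01 in the table. Il23r, the interleukin-23 receptor, which signals through Jak2 and Tyk2 to Stat3 and Stat4, rose at least 6.25-fold at 12 h, with a table change of 2.36. Lifr, the receptor of leukaemia inhibitory factor, fell in both sources, with log2 changes of -2.27 and -2.47 in the scanner values and -3.65 and -5.61 in the table. Ifngr1, the ligand-binding chain for interferon-γ, also fell in both, with -2.26 and -2.32, and with -1.28 and -1.02.

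At 6 and 12 h in the scanner values 10.2% and 13.7% of all genes were called higher. Of 20 inhibitors, 6 rose and none fell at either time, with medians of 0.44 and 0.80. Quantile normalization left 3 of them called at 6 h. In the table, 3 rose and 1 fell at 6 h, 2 rose and 3 fell at 12 h, and 4 fell and none rose at 24 h. Over all genes the table had 13.2% higher and 11.8% lower at 6 h, and 15.7% and 12.1% at 12 h, so the inhibitor counts at these times are near or under the background. At 24 h 13.3% of all genes were called higher there and 13.0% lower. Table calls at 6 h numbered 7 with columns centred and 2 with quantile normalization. Socs3, the inhibitor that Stat3 induces and that blocks gp130 receptors, rose by log2 5.98 at 6 h, with 2 of its 3 arrays saturated so that the value is a lower limit, and at least 72.1-fold at 12 h, with table changes of 1.83 and 1.64. Socs1, an inhibitor of interferon signalling, rose by 3.14 (measured on 2 of the 3 arrays at 6 h) and 4.03 in the scanner values, and its table values were -0.95 and -0.59, falling by 1.49 at 24 h. Cish, an inhibitor induced by Stat5 proteins, rose by 3.98 and 3.17 in the scanner values and fell in the table, with changes of -2.75, -4.58 and -5.90.

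The interferon genes were set beside Stat2. Of 16 measured partners and targets of ISGF3, 9 rose at 6 h and 16 at 12 h in the scanner values. None fell, and the medians were 1.22 and 2.92. At these times 10.2% and 13.7% of all genes were called higher. In the table, 11 rose and 1 fell at 6 h, 8 and 2 at 12 h, and 2 and 3 at 24 h, with medians of 1.63, 1.02 and -0.051. The table shares of all genes were 13.2% higher and 11.8% lower, 15.7% and 12.1%, and 13.3% and 13.0%, so the 24 h counts are near the background. The slide as a block gave 8 table calls at 24 h. Rsad2, an antiviral enzyme, rose by 3.29 at 6 h and at least 23.0-fold at 12 h, and by 6.75, 5.00 and 3.12 in the table. Irf7, a factor that amplifies interferon production, rose by 4.51 at 12 h and by 1.80 in the table. Isg15, a ubiquitin-like modifier, rose by 2.89 at 6 h and by 3.90 in the table. Irf9, the DNA-binding partner of Stat2, was at -0.25 at 6 h and rose by 1.00 at 12 h in the scanner values, and was at -0.23, -0.38 and -0.71 in the table. Irf9 is named here because it is the partner of Stat2, with its values seen. The summed level of 4 macrophage markers was 7.07 to 7.09 at 0 h, 7.11 to 7.26 at 6 h and 8.03 to 8.18 at 12 h, and its part in the 12 h rises was not tested. Among these markers Fcgr1, the high-affinity IgG receptor, went from 5.35 at 0 h to 7.06 at 12 h in the scanner values. Its mean table log2 ratio at 12 h was -2.81, the opposite direction.

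**Figure D4:**
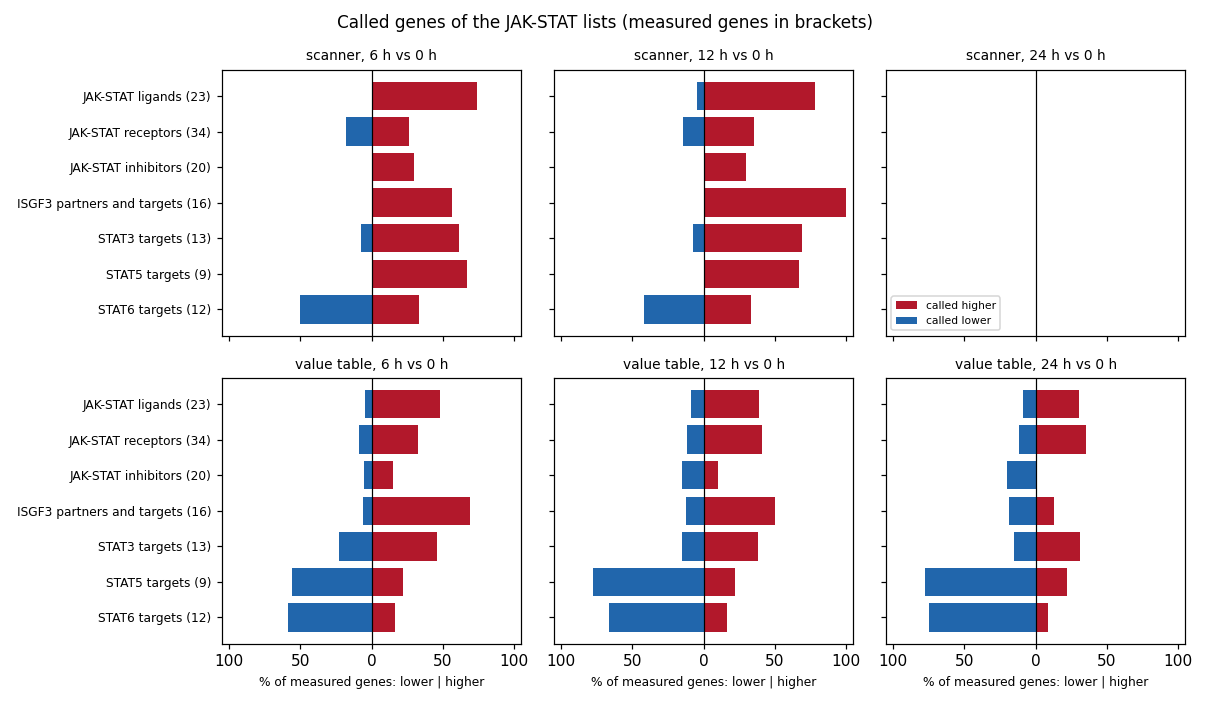
Share of the measured genes of each list called higher (red, to the right) or lower (blue, to the left) against 0 h, by time (columns) and source (rows), with the number measured in brackets. All 16 ISGF3 genes are higher at 12 h in the scanner values, no bar appears for the arrays labelled 24 h, and the STAT5 targets change side between the sources.

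Target genes of Stat3 mostly rose in the scanner values. Of 13, 8 rose and 1 fell at 6 h, and 9 rose and 1 fell at 12 h (medians 1.55 and 1.66). At these times 10.2% and 13.7% of all genes were called higher and 15.9% and 16.9% lower. The falls are under that share. In the table, 6 rose and 3 fell at 6 h, 5 and 2 at 12 h, and 4 and 2 at 24 h. The table shares of all genes were 13.2% higher and 11.8% lower, 15.7% and 12.1%, and 13.3% and 13.0%. Bcl2l1, which encodes the survival protein Bcl-xL, rose by 2.99 at 6 h and by 1.45 in the table. Timp1, an inhibitor of metalloproteinases, rose by 4.13 at 12 h and by 2.47 in the table. Fos, an immediate early factor, fell in the scanner values, with -1.96 and -1.14. Its table changes were -1.46, -0.91 and -0.34 at 6, 12 and 24 h, past 2-fold at 6 h only. Socs3 counts among these genes and among the inhibitors, so the lists are not separate evidence.

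Target genes of the Stat5 proteins rose or were not called in the scanner values and mostly fell in the table, where Stat5a itself rose at 6 and 12 h. Of 9 measured, 6 rose and none fell at 6 and at 12 h in the scanner values, with medians of 2.73 and 2.75. At these times 10.2% and 13.7% of all genes were called higher. In the table, 2 rose and 5 fell at 6 h, and 2 rose and 7 fell at 12 and at 24 h, with medians of -1.15, -1.90 and -2.16. The table shares of all genes were 13.2% higher and 11.8% lower, 15.7% and 12.1%, and 13.3% and 13.0%. Ccnd2, which encodes the cell cycle protein cyclin D2, rose by 3.90 and 5.26 in the scanner values, and its table values were -0.48 at 6 h, -1.24 at 12 h and -3.02 at 24 h. Bcl2l1 rose in both sources at 12 h, by 3.42 and 1.15. Pim1, a survival kinase, rose by 2.73 and 2.75 in the scanner values and fell in the table, with -1.15, -1.90 and -2.65. Pim1 and Osm, a gp130 cytokine with a scanner change of 3.80 and a table change of -1.78 at 6 h, were picked after their values were seen, as examples of the opposite directions.

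**Figure D5:**
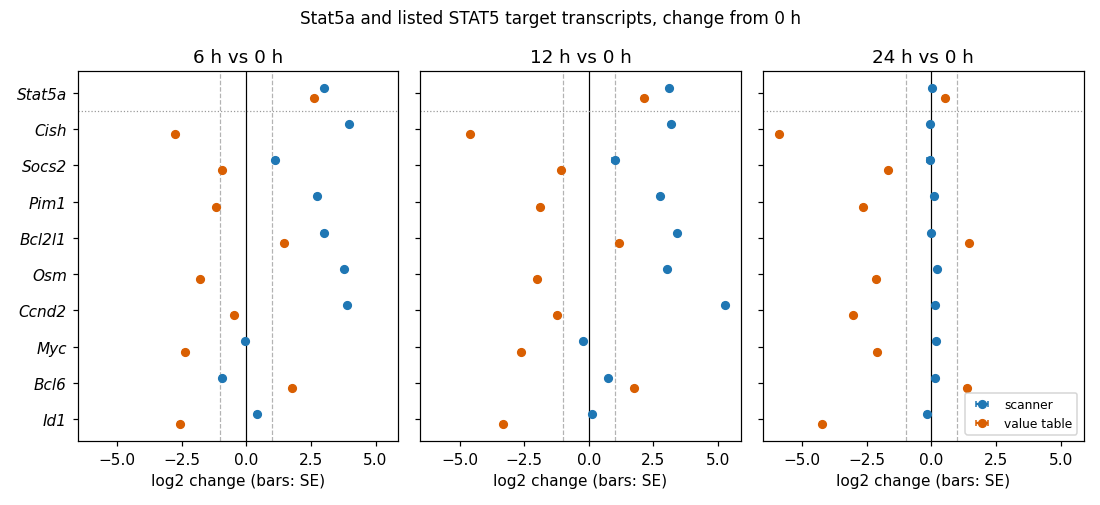
Log2 change from 0 h (x axis) of Stat5a, above the dotted line, and of the 9 measured STAT5 target genes at 6, 12 and 24 h, in the scanner values (blue) and the deposited table (orange), with SE as bars and dashed lines at 2-fold. Cish lies at 3.98 in one source and at -2.75 in the other at 6 h, whereas Bcl2l1 lies right of the 2-fold line in both.

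Target genes of Stat6 were divided. Of 12 measured, 4 rose and 6 fell at 6 h in the scanner values, where 10.2% of all genes were called higher and 15.9% lower. At 12 h 4 rose and 5 fell, against 13.7% and 16.9% of all genes. The medians were -0.61 and -0.25, or -1.40 and -0.78 without Retnla, which was saturated in both groups. In the table, 2 rose and 7 fell, 2 and 8, and 1 and 9. The table shares of all genes were 13.2% higher and 11.8% lower, 15.7% and 12.1%, and 13.3% and 13.0%. Ccl22, a chemokine, rose by 4.42 and 4.78 in the scanner values and by 4.28, 4.37 and 2.45 in the table. Il4ra, the receptor chain to which Stat6 docks, rose by 1.55 and 2.21 in the scanner values and was at -0.60, -0.43 and -0.52 in the table. Clec10a, a lectin of alternatively activated cells, fell in both sources, with changes of -3.30 and -3.85 in the scanner values and -4.59, -6.20 and -5.17 in the table. Klf4, a zinc finger factor, also fell in both, with -2.64 and -3.13, and with -2.49, -2.39 and -2.62. On the arrays labelled 24 h none of the 117 measured genes of the 7 lists was called by limma, and 36 had an unadjusted p under 0.05. Without the second 0 h array 1 ligand was called there, and without the third 24 h array 1 receptor.

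The genes whose pattern was most like each member were listed by Pearson's correlation across samples, which share the slides and the time course. Over the 12 arrays Stat5a was most like Inhba (0.9998) and Socs3 (0.9997, its probe saturated at 12 h), Stat4 was most like Prss22 (0.9991), and Stat3 most like Stk39 and Gnb4 (both 0.9987). Stat2 was most like Vdr (0.9967), Jak2 most like Cd83 (0.9993, over 11 arrays) and Tlr2 (0.9992), and Jak1 most like 2310022B05Rik (0.9984). Jak3 had a lower value with its nearest gene, Stard5 (0.965). In the table the nearest genes were others, such as Gbp5 for Stat5a (0.9971), Kif3a for Stat4 (0.9958) and Kpna2 for Stat2 (0.9933).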

How the data were processed

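RNA was measured on 1-colour Agilent arrays in 12 samples, 4 groups of 3. The scanner files were written by Agilent Feature Extraction 9.1.3.1, per the submitters' processing notes, and their processed signal is an intensity that the software had background-subtracted, per the file headers. The value table the authors deposited holds a linear ratio to the 0 h median and goes no lower than 0.01. How its columns were scaled is not stated in the labels or headers.

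The log2 of each signal minus the 75th percentile of the 43379 non-control spots was taken after 732 outlier spots were set aside, and spots of a probe were averaged. Probes were kept where all arrays of at least 1 group were well above background (23489 probes). Of several kept probes the one with the highest mean was used. RefSeq accessions gave symbols to 22951 of 41174 probes (55.7%). The table was taken as log2 for the same genes. Each source was fitted with limma 3.58.1 in R 4.3.3 (with data.table, version 1.17.8), 4 group means and 8 residual degrees of freedom, and p-values were adjusted by Benjamini-Hochberg over 18400 genes. The fit was tested on simulated data. All p-values rest on the spread between 3 samples per group, so the small number of arrays limits precision. The sources carry the same sample labels, and whether the arrays and columns labelled 24 h come from the same samples is not known. The difference between the sources was not tested.

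From each list the text names up to 2 genes with the largest rise and 2 with the largest fall called in the scanner values at each time, and others as stated. For most of the 9 genes it names the genes most like them, and some items are not reported here. The 9 genes, the lists and the rules were chosen with earlier results of these data known. The labels state no pairing by replicate number. Deviations of same-numbered samples correlated between -0.085 and 0.16 in the scanner values and between -0.077 and 0.23 in the table. For other-numbered samples the ranges were -0.17 to 0.086 and -0.18 to 0.13. With 3 samples per group these values cannot exclude a pairing. Alternatives were other background correction, scaling, filter, probe, slide and replicate terms, and leaving samples out.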

Additional observations from a re-analysis of the deposited data

Results flagged for a closer look

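Changes between neighbouring times that passed the threshold are listed because they mean that the difference from 0 h was not the same at both. In the scanner values from 6 to 12 h these were Stat2 (log2 2.03), Stat3 (1.12) and Stat4 (2.03). From 12 h to the arrays labelled 24 h they were Jak2 (-2.00), Stat2 (-1.96), Stat3 (-2.40), Stat4 (-3.00) and Stat5a (-3.07). In the deposited table they were Stat4 from 6 to 12 h (1.19) and Stat5a from 12 to 24 h (-1.59). Groups of 3 samples were not tested for single outlying samples.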

How the results depend on the processing

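With no minimum fold, the scanner values called 6 of the 9 genes at 6 h, 9 at 12 h, none at 24 h, 7 from 6 to 12 h, 9 from 12 to 24 h and 9 over the time course. The table then called 8, 7, 8, 7, 8 and 9. In the table, the slide as a block gave 2 calls at 6 h, with Stat6 at log2 1.05, and 2 from 12 to 24 h, with Stat4 at 1.11. Centred columns also gave 2 from 12 to 24 h (Stat4 1.13), and quantile normalization gave 0 from 6 to 12 h (Stat4 0.91). Leaving out 1 sample gave 1 to 2 calls from 12 to 24 h in the table. The scanner change of Stat3 was 0.89 at 6 h and 0.88 from 6 to 12 h with quantile normalization. No called value changed sign. Of the members' changes under alternatives, 891 of 909 in the scanner values and 861 of 882 in the table kept their sign and side of the threshold. The cause of the others was not tested. Many alternatives left out a sample of a group not compared, which cannot move a change between group means. These shares therefore do not measure how robust the changes are.

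The replicate number as a block changed no member call: 3, 5 and 0 in the scanner values and 1, 2 and 1 in the table at 6, 12 and 24 h. In a balanced design this block can move the p-values but barely the changes. Over all genes, normexp background correction called 2577, 3064 and 8 in the scanner values, and quantile normalization 3179, 3285 and 3165 in the table. The planned normexp correction on mean spot signals was not run, since median signals were used instead. That correction, the second probes and the table without its 24 h columns were chosen after seeing the data. No member was limited by low signal on the arrays used for it, and low signal limits listed genes such as Csf2 and Il10 at 0 h.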
